A study of Homo sapiens with 6 samples.

Results

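The cytosolic ribosomal proteins are the protein components of the ribosomes that translate nuclear-encoded mRNAs. Their genes were taken as the protein-coding genes whose symbols start with RPL or RPS followed by a digit, together with RPLP1, RPLP2 and RPSA. Ribosomal S6 kinases, RPS19BP1 and RPL7L1 were left out. This gave 88 of the 58174 genes in the expression table: 34 of the small (40S) subunit, 51 of the large (60S) subunit and 3 readthrough genes, which join a ribosomal protein gene to the gene downstream of it. The transcriptome had been sequenced in AGS cells, a line derived from a human gastric adenocarcinoma, to find genes that depend on the m6A demethylase FTO. The si-NC group had 3 libraries from cells given a negative control siRNA, and the si-FTO group had 3 libraries from cells given an siRNA against FTO. The labels also name a genotype, FTO-/- for the si-FTO libraries and wild type for the others, although the methods of the study describe siRNA. The expression values were TPM, a share of all transcripts that is adjusted for gene length, as 1 mean per group. From these means alone no error between libraries could be computed, so no difference was tested here, and the depth behind each value is unknown.

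Ribosomal proteins of the small subunit surround the site where the mRNA is decoded, and those of the large subunit surround the site where the peptide bond is made. The cell needs them in matched amounts, and surplus ribosomal proteins are degraded. Many of their mRNAs start with a terminal oligopyrimidine (TOP) tract, through which mTORC1 and the RNA-binding protein LARP1 control their translation, and their genes have given rise to a large number of processed pseudogenes.

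The start of the mRNA is what most of these genes share beyond their proteins. RefSeq start sites (GRCh38.p14) were matched for 68 of the 85 genes that are not readthrough genes. On the sense strand, a run of at least 6 bases of C and T, with at least 1 C and reaching to within 6 bases of the start, was found in 57 of these 68 genes (83.8%) and in 7690 of all 27305 genes with a promoter sequence (28.2%). A run of at least 10 bases was found in 47 of the 68 genes (69.1%) and in 7.91% of all genes. Where a gene had several starts, the longest run was taken. RPL37, the only gene past 2-fold higher, and RPS2, the most abundant in si-NC, had no matched start site. Both are thus absent from the windows and from the correlation below. The windows, from 10 bases before the start to 20 bases after it, have the run in capitals. They belong to genes toward both ends of the range of differences described further on.
RPS19, chr19:41860245-41860274, plus strand: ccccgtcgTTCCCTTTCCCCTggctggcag
RPL18, chr19:48619159-48619188, minus strand: agcccgTTCTCTCTTTCCggacctggccga
RPL9, chr4:39458903-39458932, minus strand: taatgacgacagacgTTCTTTCTTTgctgc
RPLP1, chr15:69452808-69452837, plus strand: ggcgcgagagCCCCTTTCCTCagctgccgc
RPS21, chr20:62387093-62387122, plus strand: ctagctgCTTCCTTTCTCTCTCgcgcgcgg
RPS27L, chr15:63157458-63157487, minus strand: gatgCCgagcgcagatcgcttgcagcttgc
RPL26L1, chr5:172958870-172958899, plus strand: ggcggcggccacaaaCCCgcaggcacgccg
The run had 13 bases in RPS19, 12 in RPL18, 10 in RPL9, 11 in RPLP1 and 15 in RPS21. It had 2 bases in RPS27L and 3 in RPL26L1, which are paralogs of RPS27 and RPL26. Short runs were not particular to paralogs, nor long runs to core genes. RPL27 had 1 base and RPS29 and RPS15 had 2, whereas the paralogs RPL36AL and RPL22L1 had 15 and 10. Long runs thus occurred in genes past 2-fold lower (RPS19, RPL18 and RPL9) and in genes with ratios above 0 that did not pass 2-fold (RPLP1 and RPS21). Over 63 abundant genes, those with at least 100 TPM in at least 1 group, the correlation between the length of the run and the log2 ratio was 0.05 (Pearson) and 0.11 (Spearman). These points are genes measured in the same libraries, not independent replicates.

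FTO itself stood at 33.1 TPM with si-NC against 7.27 TPM with si-FTO (log2 ratio -2.05), which fits the labels of the groups. The epithelial label was checked on 30 markers of gastric and other epithelial cells. In si-NC, 10 of the 30 had at least 1 TPM, 9 were listed at 0 and the list summed to 169 TPM, with KRT18 as its most abundant gene at 52.1 TPM. In si-FTO, 11 had at least 1 TPM, 10 were listed at 0 and the sum was 5426 TPM, with KRT8 at 3139 TPM. The list therefore differed between the groups far more than the ribosomal protein genes did. Among the defining markers, EPCAM had 1.22 TPM in si-NC against 0.113 TPM in si-FTO, and CDH1 had 3.67 and 0.685 TPM. CEACAM6, TFF1 and TFF3 were listed at 0 in both groups, and KRT19 and KRT20 were listed at 0 in si-NC and had 0.130 and 0.115 TPM in si-FTO. Other markers went the other way: KRT18 had 1851 TPM in si-FTO, KRT7 went from 0 to 253 TPM and ELF3 from 0.115 to 93.3 TPM, whereas GATA4 went from 36.96 TPM to 0. Of the 14 markers compared, 9 were higher and 4 lower past 2-fold, against 11.4% and 17.0% of all genes compared. Several epithelial markers were thus near 0 in both groups while others were abundant in si-FTO, so the list as a whole does not bear out the label of an epithelial line in si-NC and does so only in part in si-FTO.

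Some markers of other cells were also present. The 6 fibroblast markers summed to 16.0 TPM in si-NC against 45.5 TPM in si-FTO, led by COL1A1 at 10.3 and 36.4 TPM, with PDGFRB at 0.370 and 5.34 TPM. COL3A1 went the other way, with 2.18 and 0.361 TPM. Of 5 fibroblast markers compared, 2 were higher and 1 lower past 2-fold, where 11.4% and 17.0% of all genes compared were. The markers are too few to set against those shares. The leukocyte marker PTPRC was listed at 0 in both groups. Of 3 endothelial markers, 2 were found, with CDH5 at 0.0083 TPM in si-NC against 40.9 TPM in si-FTO, whereas VWF had 0.0049 and 0.0537 TPM. The groups thus differed in markers of cell identity as well as in FTO, and whether both hold the same cell line cannot be told from these means. Each ratio below is therefore a difference between the groups as labelled and not necessarily an effect of FTO. The part of these differences in the values given below was not tested, and a change in RNA per cell and a change in the cells present cannot be told apart.

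In both groups the ribosomal protein genes were among the most abundant of all. Together they held 147623 TPM in si-NC against 132683 TPM in si-FTO, or 14.8% and 13.3% of all TPM. Among the 100 most abundant genes of the table, ribosomal protein genes numbered 51 with si-NC and 45 with si-FTO, and among the first 200 they numbered 73 and 68. Excluding readthrough genes, 78 of the 88 had at least 100 TPM in at least 1 group. The levels of these 78 ran from 260.3 TPM (RPL36AL) to 7039 TPM (RPS2) in si-NC, with a median of 1482 TPM, and from 156 TPM (RPL26L1) to 4407 TPM (RPS18) in si-FTO, with a median of 1558 TPM. The highest level was 27.0 times the lowest in si-NC, and 28.2 times it in si-FTO, with a paralog of a core protein at the lower end in both groups. The order of the genes was largely shared: the log2 levels of the groups had a correlation of 0.88 (Pearson) and 0.88 (Spearman) across the 78 genes, which share both sets of libraries.

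The most abundant genes did not all lie on the same side of equality. RPS2, a protein of the mRNA entry channel, ranked 1 of the ribosomal protein genes in si-NC with 7039 TPM and 3 in si-FTO with 3945 TPM. RPL39, a small protein at the peptide exit tunnel, had 5145 TPM in si-NC against 2924 TPM in si-FTO. By the mean of the groups these were 2 of the leading 5, and the other 3 were closer to equal or higher in si-FTO, with 3669 and 4407 TPM for RPS18, a protein of the head of the small subunit, 3708 and 4091 TPM for RPL41, and 4003 and 3654 TPM for RPL27. RPS4X, at rank 3 in si-NC and rank 11 in si-FTO, had a log2 ratio of -0.58.

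**Figure D1:**
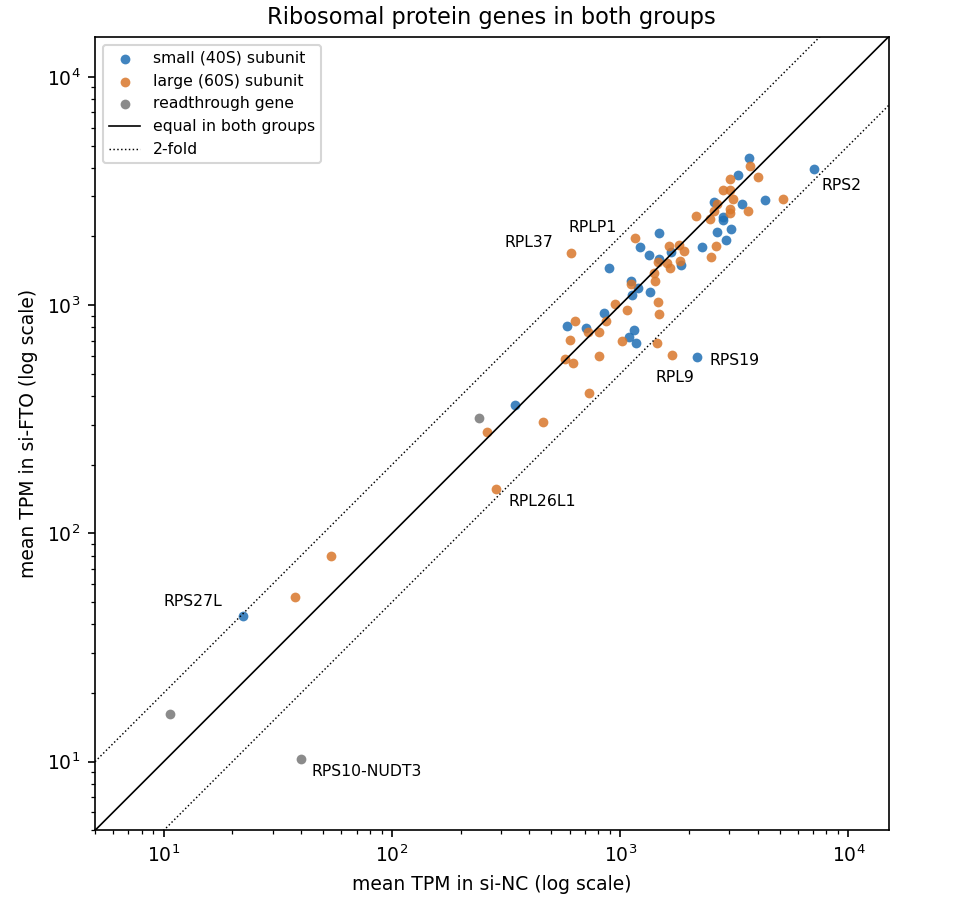
Mean TPM in si-NC (horizontal, log scale) and si-FTO (vertical, log scale) of the 84 ribosomal protein genes with at least 5 TPM in at least 1 group. Each point is the mean of a gene as deposited, so no error bars can be drawn; most points lie between the dotted 2-fold lines, with RPL37 above them and RPS19, RPL9, RPL18 and RPS10-NUDT3 below.

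The groups were compared by log2 ratios of the si-FTO mean over the si-NC mean after adding 1 TPM to both, which understates the difference of low genes, and a gene was counted as higher or lower when it passed 2-fold. The genes compared were those with at least 0.5 TPM in at least 1 group, 20493 in all. Of the 88 ribosomal protein genes, 85 passed this filter. Those that did not were RPL10L, a testis-expressed copy of RPL10 with 0.151 TPM in si-NC against 0.0115 TPM in si-FTO, and RPS4Y1 and RPS4Y2, both listed at 0 in both groups, whereas their X-linked counterpart RPS4X had 4306 and 2880.0 TPM.

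Few of the 85 passed 2-fold. RPL37 was the 1 gene higher in si-FTO, where 11.4% of all genes compared were higher, and 5 genes were lower, where 17.0% of all genes were lower. As a share of the 85, these were 1.18% higher and 5.88% lower. The background was also counted, after the data were seen, over the 1921 other genes with at least 100 TPM in at least 1 group. Of those, 18.4% were higher and 9.73% lower. At 1.5-fold, 4 ribosomal protein genes were higher and 14 lower, against 18.8% and 31.2% of all genes and 25.7% and 22.4% of the other abundant genes. Within 1.5-fold lay 67 of the 85 genes (78.8%), compared with 49.97% of all genes compared and 51.8% of the other abundant genes. The SD of the log2 ratio was 0.487 over the 78 abundant ribosomal protein genes and 1.83 over the 1921 other abundant genes. These other genes are less abundant, with a median of 139 TPM in si-NC, against 1462 TPM for the 85 genes, and include genes abundant in 1 group only, which widens their spread. The ribosomal protein mRNAs thus differed less than all genes compared, while genes of equal abundance were not compared. Shares within 1.5-fold in related lists ranged widely: 78.6% of 14 TOP mRNAs outside the ribosome, 73.3% of 15 genes of mTORC1 and LARP1, 71.4% of 35 initiation and elongation factors, 71.4% of 14 genes of RNA polymerase I, 67.9% of 78 mitochondrial ribosomal proteins, 59.2% of 49 biogenesis factors and 22.2% of 9 ribosomal protein chaperones. Some of these lists were thus close to the ribosomal proteins and others were not.

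The family as a whole had no direction that held under each scaling. Its median log2 ratio was -0.05, with 38 genes above 0 and 47 below, and the middle of its values ran from -0.48 (lower quartile) to 0.16 (upper quartile). The median of all genes compared was -0.20, so the family lay 0.15 above it, with 53 of the 85 genes (62.4%) above the median of all genes. Median-ratio scaling of the groups moved the median of all genes to -0.03. The median of the ribosomal protein genes was then 0.16, 0.19 above that of all genes, with 54 genes above 0, 2 past 2-fold higher and 3 past 2-fold lower, against 13.6% and 14.1% of all genes under that scaling. Under quantile normalization the difference from all genes turned to -0.05, with 32 genes above 0. The subunits were alike, with median log2 ratios of -0.02 for 32 genes of the small subunit and -0.07 for 50 genes of the large subunit, which both turned positive under median-ratio scaling (0.19 and 0.14).

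**Figure D2:**
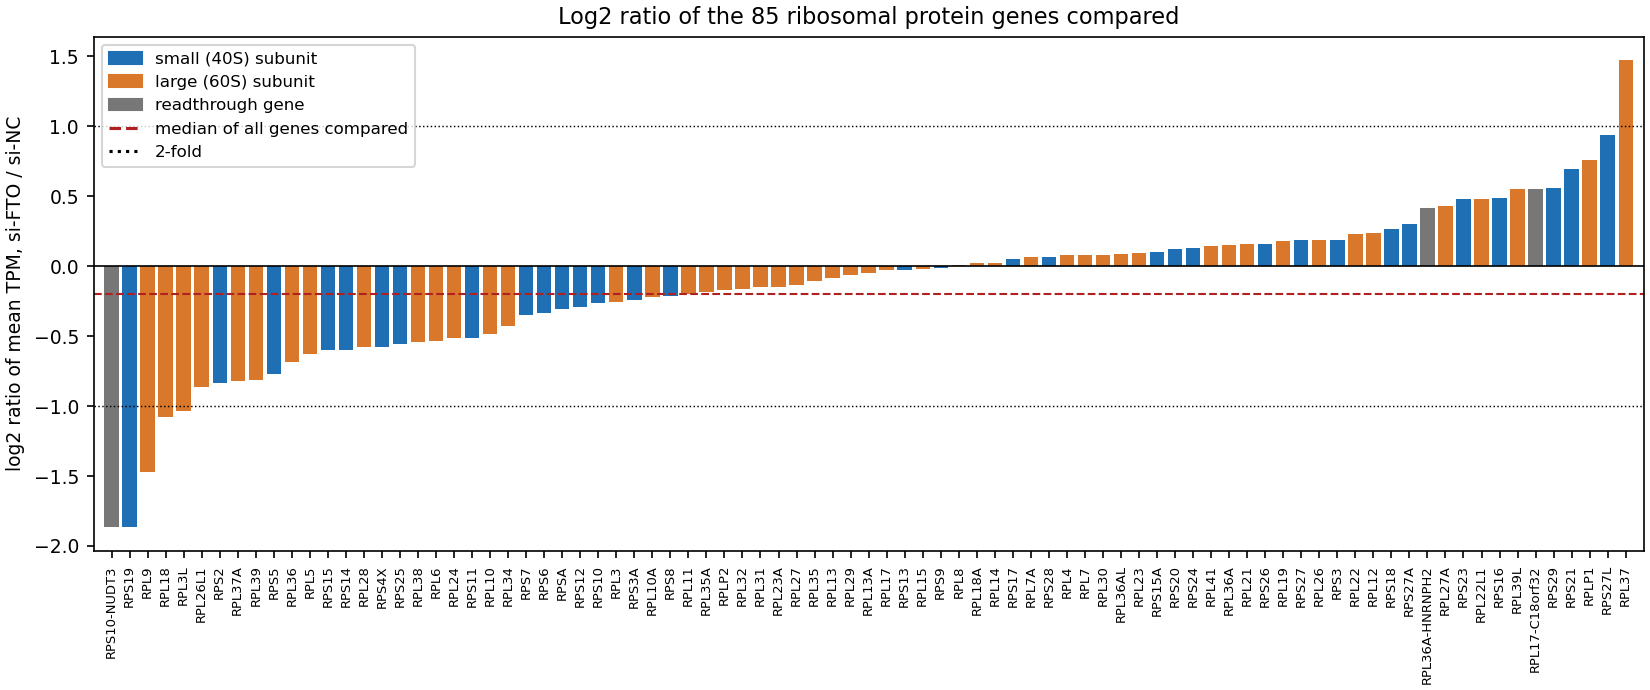
Log2 ratio of mean TPM, si-FTO over si-NC, of the 85 ribosomal protein genes compared, in order of the ratio and coloured by subunit. The dashed line is the median of all genes compared (-0.20) and the dotted lines mark 2-fold; 1 bar passes the upper line and 5 pass the lower line, and median-ratio scaling would shift all bars upward and turn the median of the bars from -0.05 to 0.16.

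RPS19, a protein of the head of the small subunit that is often mutated in Diamond-Blackfan anemia, had 2165 TPM in si-NC against 593 TPM in si-FTO (log2 ratio -1.87). It went from rank 28 to rank 71 among the ribosomal protein genes, which at 43 places was the largest shift of rank of the 78 abundant genes. The gene lies at chr19:42364325-42376993 (GRCh37) on the plus strand. Its 4 annotated pseudogenes together held 0.519 TPM in si-NC against 0.682 TPM in si-FTO, so with their levels added the log2 ratio was -1.86. RPS19 thus fell past 2-fold on either count, and its log2 ratio lay between -1.93 and -1.65 under the alternatives tried.

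RPL37 was the counterpart on the other side. This protein of the large subunit had 609 TPM in si-NC against 1691 TPM in si-FTO (log2 ratio 1.47), and moved from rank 71 to rank 35. It lies at chr5:40825364-40835324 (GRCh37) on the minus strand. Its log2 ratio lay between 1.31 and 1.68 under the alternatives tried, so it rose past 2-fold in each of them. The 15 pseudogenes named after it left its ratio at 1.47.

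RPL18, another protein of the large subunit, had 1452 TPM in si-NC against 685 TPM in si-FTO (log2 ratio -1.08), and 4 pseudogenes with little signal. Its fall was close to the threshold and came within 2-fold (-0.87) under median-ratio scaling. RPL3L, the muscle form of RPL3, was also lower, with 1.40 TPM in si-NC against 0.169 TPM in si-FTO. It passed the filter only through its level in si-NC, and it came within 2-fold under median-ratio scaling (-0.96) and quantile normalization (-0.84), whereas a pseudocount of 0.1 gave -2.48 and nuclear protein-coding TPM -1.18.

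A readthrough gene was as low as RPS19. RPS10-NUDT3 had 40.1 TPM in si-NC against 10.3 TPM in si-FTO (log2 ratio -1.87), whereas RPS10 had 2816 and 2351 TPM, a log2 ratio of -0.26. The 2 other readthrough genes were not past 2-fold, with 240.5 and 320.5 TPM for RPL36A-HNRNPH2 and 10.7 and 16.1 TPM for RPL17-C18orf32. Because readthrough genes overlap the genes they join, the split of reads between them is uncertain.

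RPL9 is the case in which the copies of a gene decided the count. RPL9, a protein near the base of the stalk of the large subunit, had 1688 TPM in si-NC against 608 TPM in si-FTO (log2 ratio -1.47). Its pseudogene RPL9P9 had 12.5 TPM in si-NC against 868 TPM in si-FTO. The sum of RPL9 and its 19 pseudogenes was 1715 TPM in si-NC against 1526 TPM in si-FTO (log2 ratio -0.17), so the fall of RPL9 did not hold for the sum.

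The coding sequence of RPL9 and the matching stretch of RPL9P9 are nearly the same, which bears on how reads can be assigned. Over the 576 bases of the RPL9 coding sequence, 575 were identical in RPL9P9 and 1 differed, and the longest identical stretch had 365 bases. The only difference lies in coding exon 4 of RPL9. The 60 bases around it, from GRCh37 with the GENCODE annotation lifted to it, are shown with the differing base in capitals.
RPL9, chr4:39458026-39458085, minus strand: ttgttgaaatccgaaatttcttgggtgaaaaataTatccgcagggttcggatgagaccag
RPL9P9, chr15:82664702-82664761, minus strand: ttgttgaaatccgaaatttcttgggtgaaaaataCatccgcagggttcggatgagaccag
A read that does not cover this base matches both genes equally well within the coding sequence. The level of RPL9 alone is therefore uncertain in both groups, and how the reads were split was not tested.

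Pseudogenes had a smaller effect at other genes. Of the 88 genes, 76 have pseudogenes named after them. Ribosomal protein pseudogenes by name numbered 1588, of which 281 passed the filter, but not all of the 1588 had a parent among the 88 genes. The ratio of 6 genes moved by more than 0.1 when the pseudogenes named after each gene were added. RPL10P9, a copy of RPL10, had 10.5 TPM in si-NC against 370.0 TPM in si-FTO, and RPL10 with its pseudogenes had a log2 ratio of -0.24 in place of the -0.48 of RPL10 alone (3633 and 2598 TPM). RPL13P12 had 44.7 and 257 TPM, and adding the 7 pseudogenes of RPL13 took its log2 ratio from -0.09 to 0.26. RPSAP15 had 43.7 and 177 TPM and RPSAP47 had 10.6 and 176 TPM, and the log2 ratio of RPSA went from -0.30 to -0.14. The other 2 were RPL29, from -0.06 to 0.04, and RPS26, from 0.16 to 0.04.

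RPL10 and RPL10P9 share 636 of 642 coding bases, and a stretch with 2 of the differences is shown for comparison with the RPL9 pair, again with differing bases in capitals.
RPL10, chrX:153628829-153628888, plus strand: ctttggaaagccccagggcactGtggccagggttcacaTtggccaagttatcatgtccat
RPL10P9, chr5:168043710-168043769, plus strand: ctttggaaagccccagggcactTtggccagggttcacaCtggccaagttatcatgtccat
The stretch of RPL10 lies in coding exon 5. In all, 20 pseudogenes had at least 100 TPM in at least 1 group, and 17 of them were at least 98% identical to the coding sequence of their parent over the aligned bases, which for RPSAP15 were 858 of 885. RPS26P19 was the least alike, at 79.5%, and the copies RPS28P7, RPL36AP37, RPL39P3, RPL41P1 and RPL41P5 were identical over the whole coding sequence.

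High pseudogene levels did not always alter the ratio of the parent. RPS28P7 had 1079 TPM in si-NC against 1099 TPM in si-FTO, above the 347 and 364 TPM of RPS28 itself. RPS2P5 had 1959.7 and 1057 TPM, a log2 ratio of -0.89 beside the -0.83 of RPS2. In these cases the copy and its parent had similar ratios, and the sum left the ratio almost as it was, at 0.04 for RPS28 and -0.86 for RPS2.

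**Figure D3:**
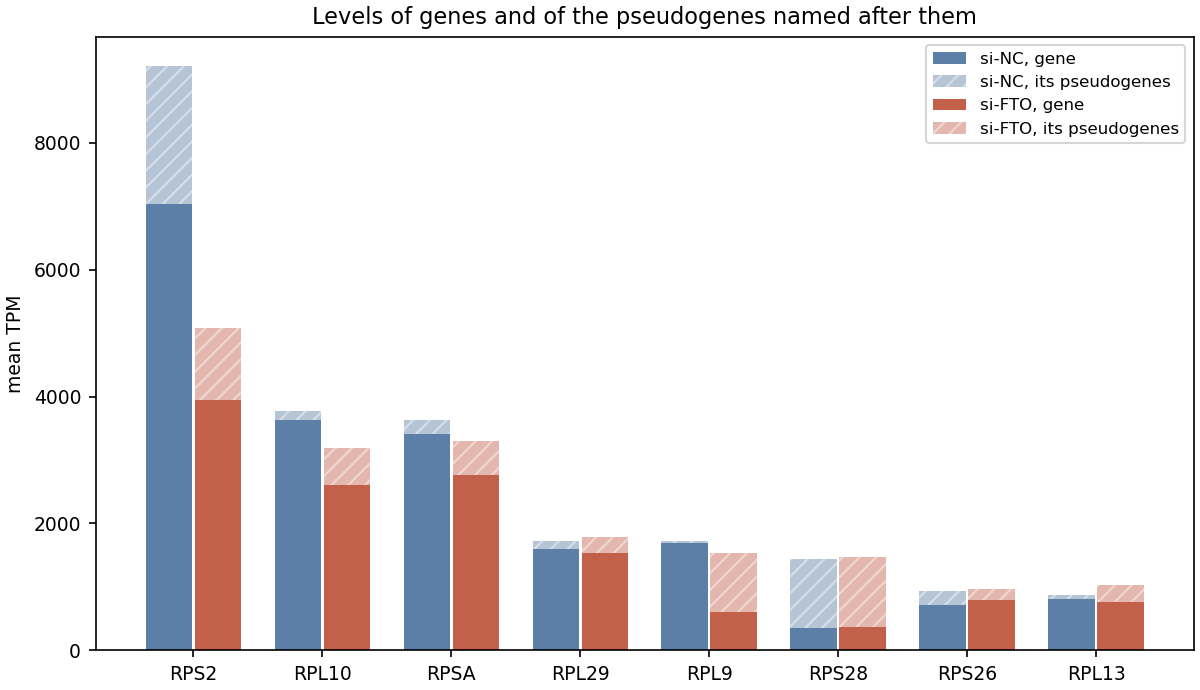
Mean TPM (vertical) in si-NC and si-FTO of 8 ribosomal protein genes, in solid colour, with the summed mean TPM of the pseudogenes named after each on top, hatched. For RPL9 the solid bars are 1688 and 608 TPM and the full bars 1715 and 1526 TPM, whereas for RPS2 gene and pseudogenes are both lower in si-FTO; group means carry no error bars.

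Of the paralogs that can take the place of a core ribosomal protein, none but RPL3L passed 2-fold, and their share within each pair differed. RPL26L1 had 285 TPM in si-NC against 156 TPM in si-FTO while RPL26 had 2149.6 and 2448 TPM, so its share of the pair was 11.7% and 6.004%. RPL39L had 53.9 and 79.5 TPM, which against RPL39 was 1.04% and 2.65% of the pair. These ratios went in opposite directions, RPL26L1 at -0.86 and RPL39L at 0.55.

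RPS27L, a target of p53 that resembles RPS27, had 22.2 TPM in si-NC against 43.4 TPM in si-FTO (log2 ratio 0.94), and passed 2-fold under median-ratio scaling (1.14) and quantile normalization (1.01). Its share of the pair was 0.673% and 1.15%, RPS27 having 3268 and 3718 TPM. RPL22L1, which can stand in for RPL22, had 37.4 and 52.5 TPM, or 5.87% and 6.95% of the pair, RPL22 having 600.4 and 703 TPM. RPL36AL, with 260.3 and 277 TPM, made up 13.8% and 13.3% of its pair with RPL36A, which had 1629.9 and 1809 TPM, and RPL3L held 0.0465% and 0.0067% of its pair with RPL3, which had 3015 and 2528 TPM. In each of these pairs the core gene remained the far more abundant member in both groups.

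After RPL37 and RPS27L, the largest log2 ratios among genes with at least 10 TPM were those of RPLP1, RPS21 and RPS29, none past 2-fold. RPLP1, an acidic protein of the stalk that recruits elongation factors, had 1160.4 TPM in si-NC against 1963 TPM in si-FTO (log2 ratio 0.76). Its partner in the stalk, RPLP2, had 1066 and 948 TPM, a log2 ratio of -0.17. The partners therefore differed, although the sign of RPLP2 lies within the shift that median-ratio scaling makes. RPS21 had 893 and 1449 TPM and RPS29 had 1217 and 1793 TPM, log2 ratios of 0.70 and 0.56.

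Each ratio was set beside those of the genes around it. For each gene the median log2 ratio of the 50 nearest genes compared on its chromosome was taken, leaving out ribosomal protein genes and their pseudogenes. Across 82 genes, the gene's own log2 ratio and the median of its neighbours had a correlation of 0.57 (Pearson) and 0.56 (Spearman), and across the 78 abundant genes 0.54 and 0.52. With pseudogenes added the values were 0.52 and 0.49. The points share both sets of libraries, and genes close to each other share neighbours, so the correlation is a description only. Transcript length gave 0.09 and -0.01 over the same 78 genes.

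RPL37 had the highest neighbour median of the 82 genes, 0.80, beside its own 1.47. RPL18 lay among genes with a median of -0.70 and had -1.08 itself, and RPL26L1 had -0.86 beside -0.69. For these genes the surroundings went in the same direction as the gene. RPS19 and RPL3 shared the sign of their neighbours but were far from them in size. RPS19 had -1.87 among neighbours with a median of -0.16, and RPL3 had -0.25 among neighbours with -0.72. Other genes had the opposite sign to their surroundings, such as RPS29 with 0.56 beside -0.21 and RPS23 with 0.48 beside -0.33. On chromosome 8 all 4 abundant members were above 0, where the median of their neighbour medians was -0.34. Chromosome 19 held the largest number of abundant members, 12 of the 78, with a median log2 ratio of -0.55 and 3 genes above 0, where the median of their neighbour medians was -0.37. Whether the region or the gene itself sets a ratio was not tested.

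**Figure D4:**
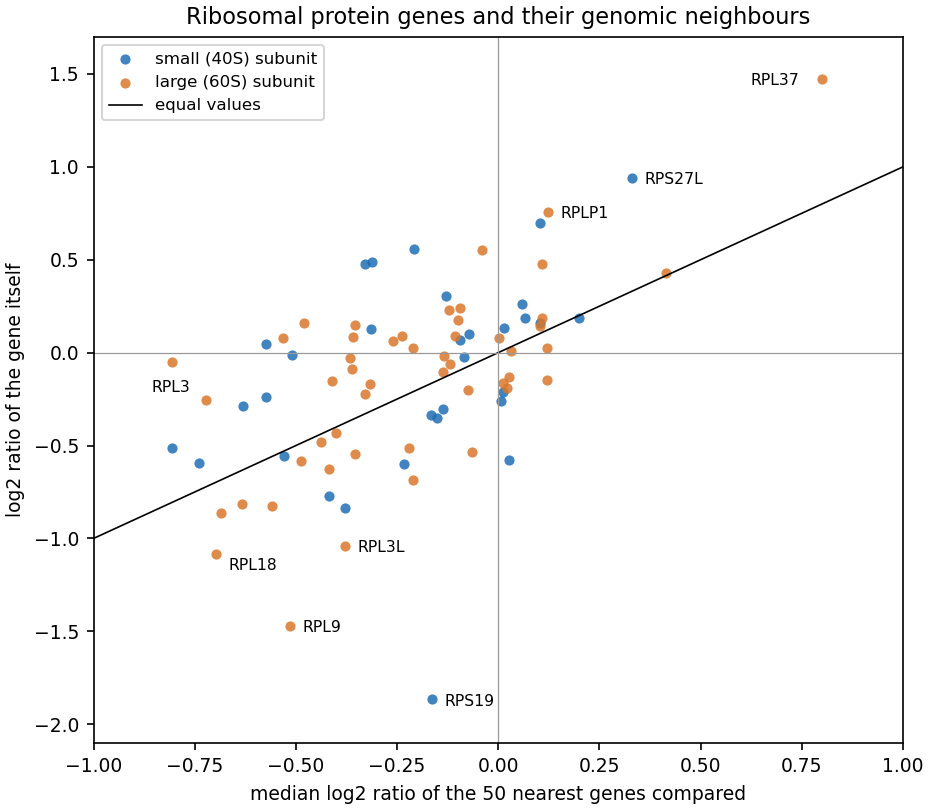
Log2 ratio of each of 82 ribosomal protein genes (vertical) against the median log2 ratio of its 50 nearest genes compared (horizontal); the line marks equal values. RPL37 is at the upper right with 1.47 and 0.80, and RPS19 lies far below the line with -1.87 and -0.16.

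Genes that carry small nucleolar RNAs in their introns were described apart from the others, without a test. The 29 such genes had a median log2 ratio of -0.09 and the 53 others -0.02, and past 2-fold 1 host (RPL37) was higher and 0 lower, against 0 higher and 4 lower of the others and 11.4% and 17.0% of all genes. Within 1.5-fold lay 25 of the 29 hosts (86.2%) and 40 of the 53 others (75.5%).

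The naming rule does not reach some constituents of the cytosolic ribosome, of which RPLP0, FAU and RACK1 were looked at. RPLP0, the base of the stalk, had 2359 TPM in si-NC against 3040.2 TPM in si-FTO. FAU, which encodes a protein of the small subunit, had 366 and 497 TPM. RACK1, a scaffold on the small subunit, had 2079.5 and 1056 TPM, a log2 ratio of -0.98, just within 2-fold. None of these genes was past 2-fold in the values as deposited, but RACK1 passed it under quantile normalization (-1.01).

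The mRNAs with a TOP tract outside the ribosome resembled the ribosomal protein mRNAs in their median, 0.02 over 14 genes, which was 0.23 above that of all genes but 0.01 above it under quantile normalization, where the median was -0.05. Past 2-fold, 2 of the 14 (14.3%) were higher and 0 lower, against 11.4% and 17.0% of all genes. EIF4B, which assists the helicase of initiation, had the largest ratio with 319.8 TPM in si-NC against 822 TPM in si-FTO, and NPM1, a nucleolar histone chaperone, the lowest with 2883 and 1655 TPM. The signalling genes that act on TOP mRNAs, mTORC1 and LARP1 with their partners, had a median of -0.45 over 15 genes with 0 past 2-fold, from AKT1S1 (-0.97) to LARP4 (0.42).

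The chaperones of ribosomal proteins stood lower than the proteins themselves. Of 9 chaperones and escort factors of ribosomal proteins, 6 were lower past 2-fold and 0 higher, against 17.0% and 11.4% of all genes, with a median of -1.15. The median stayed below that of all genes under median-ratio scaling (by -0.91) and quantile normalization (by -1.07). Under median-ratio scaling 3 of 9 were lower past 2-fold, against 14.1% of all genes under that scaling. Quantile normalization gave 6 of 9 lower, against 14.2% of all genes. LTV1, a factor of small subunit export, had 99.9 TPM in si-NC against 29.9 TPM in si-FTO (log2 ratio -1.71). TSR2, the chaperone of RPS26, was at the other end with 86.0 and 82.8 TPM. PDCD2, the chaperone of RPS2, had 105 and 35.2 TPM, a log2 ratio of -1.55, beside the -0.83 of RPS2. Unlike the ribosomal protein genes, the 9 chaperones were not set beside their genomic neighbours. The part of the region in their ratios was not tested.

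Among 49 ribosome biogenesis factors, 10 (20.4%) were lower past 2-fold and 0 higher, against 17.0% and 11.4% of all genes. Their median was -0.52. Under median-ratio scaling 3 were lower and 1 higher, against 14.1% and 13.6% of all genes. RPF2, which joins the 5S particle to the early large subunit, had 52.3 TPM in si-NC against 11.7 TPM in si-FTO, and EFL1, which releases a late assembly factor, had 18.2 and 35.2 TPM. RNA polymerase I and its factors had a median of -0.31 over 14 genes and 0 past 2-fold, from POLR1F (-0.91) to TAF1D (0.84). Initiation and elongation factors had a median of -0.21 over 35 genes, with 2 (5.71%) lower and 0 higher, from EIF2B3 (-1.30) to EIF6 (0.92). The mitochondrial ribosomal proteins, a separate family of the same function, had a median of -0.31 over 78 genes, from MRPS33 (-2.17) to MRPL17 (0.89). Of these, 5 (6.41%) were lower and 0 higher, against 17.0% and 11.4% of all genes. Median-ratio scaling left 1 lower and 1 higher, against 14.1% and 13.6% of all genes. Set against these lists, the cytosolic ribosomal proteins had a median closer to 0 than all but the TOP mRNAs; under median-ratio scaling, which moves each list upward, that order no longer held.

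**Figure D5:**
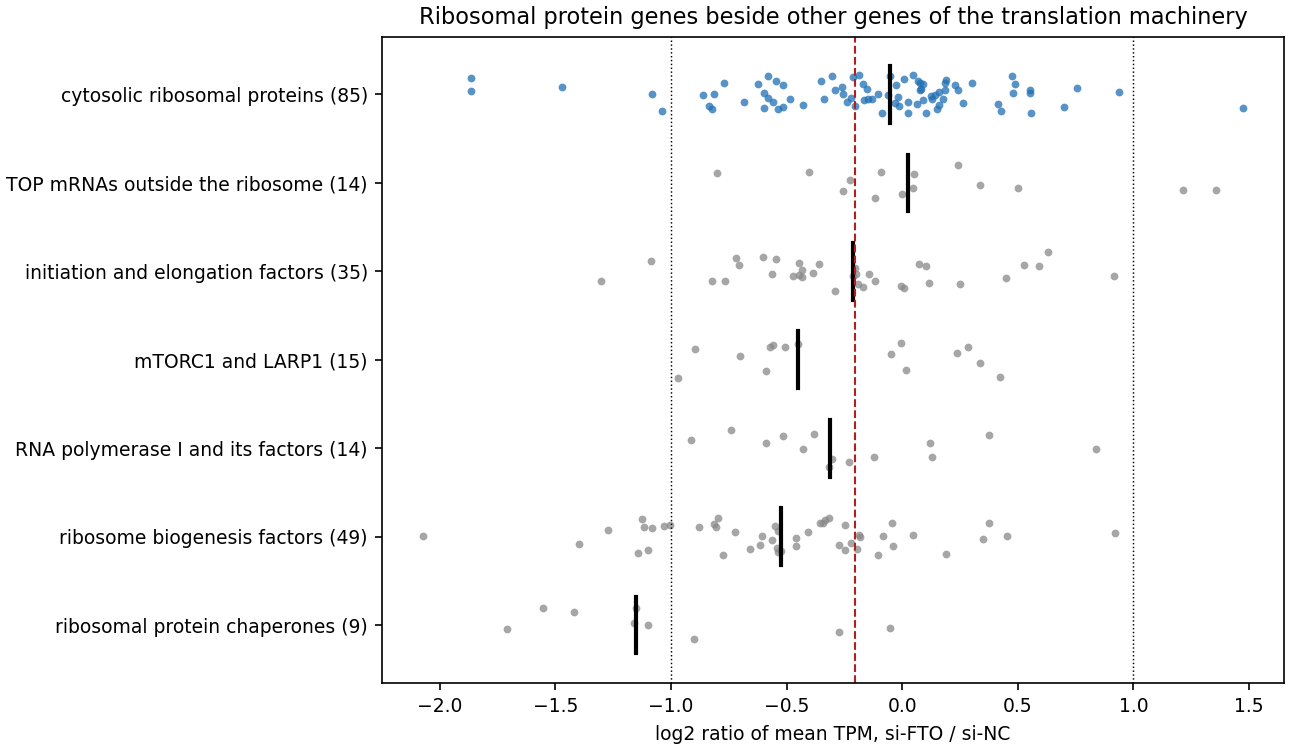
Log2 ratio of mean TPM, si-FTO over si-NC, of the genes compared in each list (number in parentheses), with the median of the list as a black bar, the median of all genes compared (-0.20) as a dashed line and 2-fold as dotted lines. The ribosomal proteins centre on -0.05 and their chaperones on -1.15; the first of these medians turns to 0.16 under median-ratio scaling, while the chaperones remain below 0.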

How the data were processed

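RNA-seq of AGS cells was analysed from the table the authors deposited, in which TPM is given as 1 mean per group of 3 libraries. According to the study's methods, the authors mapped reads to hg19 with Bowtie and quantified genes with RSEM, whereas the submitters' processing notes name HISAT2. Whether counting used the strand is not given in the sources used here. The table also holds the authors' log2 ratio, p-value and q-value per gene, which were not used. A value of 0.0001 was read as 0. Over all genes, TPM summed to 999973 (si-NC) and 999960 (si-FTO), which says nothing of depth. Symbols were matched for 55726 of 58174 identifiers. The members and gene lists were chosen with earlier results of these data known. Log2 ratios used a pseudocount of 1 TPM and a minimum of 0.5 TPM, and the calculation was tested on simulated data. Other settings tried were dropping the filter, a pseudocount of 0.1, a minimum of 5 TPM, median-ratio scaling, quantile normalization, TPM of nuclear protein-coding genes only, leaving out readthrough genes, adding pseudogene TPM to the parent, and a 1.5-fold threshold.

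The genes named are the 5 most abundant members, those past 2-fold, the 5 highest and 5 lowest log2 ratios at 10 TPM or more, members of paralog pairs, members that did not pass the filter, RPLP0, FAU and RACK1, and the highest and lowest gene of each further list. Other genes named, among them parents of pseudogenes, pseudogenes, PDCD2, RPLP2 and RPS10, were chosen after their values were seen. Coding sequences were aligned in GRCh37 with Biopython 1.88, and other calculations used Python 3.11.15, numpy 2.4.6, pandas 2.3.3, scipy 1.17.1 and matplotlib 3.10.9.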

Additional observations from a re-analysis of the deposited data

How the results depend on the processing

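No paired analysis was possible because the table used here gives 1 mean per group. Leaving out libraries was not possible for the same reason. A median was taken as moved past 0.1 in log2, and a count or share past 1.5 times.

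The count of genes at least 2-fold higher, 1 in the values as deposited, was 2 with median-ratio scaling, 2 with quantile normalization and 4 at 1.5-fold. In the same order, 11.4%, 13.6%, 13.7% and 18.8% of all genes compared were higher. The count at least 2-fold lower, 5, was 3 with median-ratio scaling and 14 at 1.5-fold, and 3 over the genes with at least 100 TPM, a setting chosen after seeing the data. Of all genes compared, 17.0% were lower as deposited, 14.1% with median-ratio scaling and 31.2% at 1.5-fold. Of the other genes with at least 100 TPM, 9.73% were lower. The median log2 ratio, -0.05, turned to 0.16 with median-ratio scaling, which removes a shift of all genes by construction. It lay between -0.12 and -0.04 under the other alternatives and was 0.03 relative to the other abundant genes, also chosen after seeing the data. The share of all TPM, 14.8% and 13.3%, was 18.2% and 16.1% of nuclear protein-coding TPM and 15.5% and 14.1% with pseudogenes added. Of 230 values of 29 named genes under alternatives, 4 came within 2-fold, 3 passed it and 0 changed sign from past it. The 3 were RPS27L under both scalings and RPL10L (-1.17) with a pseudocount of 0.1. Depth is unknown, and the mean columns used here carry no spread between libraries, so these differences were not weighed against noise.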
